A study of Homo sapiens with 8 samples.

Results

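The step from low doses of melatonin to 4 mM was examined in 5637 and UM-UC3 cells, both established human bladder cancer cell lines. The comparison set the library at 4 mM of each line against the libraries at 1 and 2 mM of the same line. It used 6 of the 8 libraries of the series, 2 at 4 mM and 4 at the lower doses, and asked which genes changed only at the highest dose and which reversed there. The 2 DMSO libraries (0 mM) stayed out of the step test and served to describe whether 1 and 2 mM had already moved a gene.

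All cells were labelled wild type (WT) and were treated for 24 h with melatonin or with DMSO alone. The labels give a different culture medium for each line, both with 10% fetal bovine serum, so the line and its medium cannot be told apart. Each dose of each line has 1 library, and the sources used here do not say how many cultures stand behind it. The libraries at 1 and 2 mM are therefore not replicates of a condition, and the p-values below measure a step against the difference between these libraries within a line, part of which may itself be a response to dose. Values are deposited per gene without a named unit and were treated as FPKM, fragments scaled by transcript length and library size, so read depth is unknown. All steps are differences of log2(FPKM + 1), a scale on which low genes show less than their full change, and FPKM values are given in the order 0, 1, 2 and 4 mM.

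Melatonin is a hormone of the pineal gland that is also used at millimolar concentrations in cell culture, where it slows the growth of many cancer cells. Cells under proteotoxic stress call on separate programmes. Cytosolic damage releases heat shock factors that switch on chaperones of the HSP70, HSP40 and HSP90 families, stress in the endoplasmic reticulum (ER) raises ER chaperones through IRE1, ATF6 and PERK, and the integrated stress response slows translation while it induces ATF4 and its targets. Growth factor and stress kinases induce immediate early genes within minutes, followed by phosphatases that restrain them.

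The labelled cell type was checked against markers. In 5637 cells 9 of 9 bladder epithelial markers had an FPKM of at least 1 at every dose, and their sum was 3603, 3261, 2586 and 984.4. In UM-UC3 cells 3 or 4 of 9 did, with sums of 210.3, 183.2, 138.5 and 103.7, and CDH1, which encodes E-cadherin, stood between 0.020 and 0.105. Of the markers of other cells, endothelial markers stayed below 1 in all libraries, the leukocyte list had only CD68 above 1, at up to 106 FPKM in UM-UC3 cells, and the neuron list led with MAP2 at up to 28.8 FPKM in 5637 cells. Of 6 fibroblast markers, 1 had an FPKM of at least 1 in every library but UM-UC3 at 4 mM, which had 0, and their sum was 6.41, 6.96, 7.96 and 10.0 in 5637 cells and 8.34, 8.14, 1.79 and 0.295 in UM-UC3 cells. The part of these markers in the results was not tested. Summed FPKM ranged from 332961 to 395621 per library and the share of the mitochondrial genome from 11.9 to 19.4%.

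Of 60612 genes, 12602 had a mean FPKM of at least 1 over the 6 libraries and were tested. AL138895.1, with a mean of 1.000, was the last gene inside this limit and TMEM169, with 0.9997, lay just outside. By size alone, with no test, the interval from 2 to 4 mM held most of the movement. In 5637 cells 0.984% of the tested genes differed by at least 1 on the log2 scale between 0 and 1 mM, 1.21% between 1 and 2 mM and 11.5% between 2 and 4 mM. The shares in UM-UC3 cells were 0.611%, 1.49% and 3.79%. The last interval also spans more melatonin than the others.

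**Figure D1:**
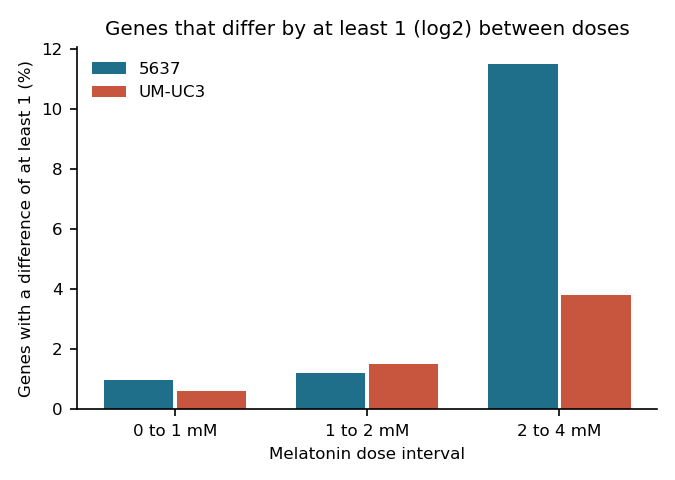
Share of the 12602 tested genes (vertical axis, percent) whose log2(FPKM + 1) differed by at least 1 between neighbouring doses (horizontal axis), 1 library per dose and line, with no test. The bars for 2 to 4 mM reach 11.5% in 5637 cells and 3.79% in UM-UC3 cells, above both other intervals in each line.

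Over both lines, with the line as a block, 1 gene passed an adjusted p of 0.05 by limma, a fall (0.00794% of the genes tested), and 0 rose, while 1291 genes rose and 1738 fell at an unadjusted p under 0.05. A further 13 genes, which make 14 under 0.06 (0.111%), lay at an adjusted p of 0.0573, among them HSPA6, CCN2, GADD45B and ISG15. In all, 961 genes (7.63%) had an adjusted p under 0.1. Fitted separately by line, the step gave 1104 rises (8.76%) and 1223 falls (9.7%) in 5637 cells, 2327 in all (18.5%). In UM-UC3 cells it gave 34 rises (0.27%) and 14 falls (0.111%), 48 in all (0.381%). By size alone, with no test, 13.8% of the tested genes had a step of at least 1 in 5637 cells and 6.54% in UM-UC3 cells. That is a narrower contrast between the lines than the calls give. In the fits by line the lone 4 mM library of a line is taken to vary as the lower doses do. Leaving out any single library at 1 or 2 mM, which leaves 1 residual degree of freedom for the steps per line, brought every one of these counts to 0. With the DMSO libraries added to the low doses, an alternative chosen after seeing the data, 557 genes rose (4.42%) and 814 fell (6.46%) over both lines, 1371 in all (10.9%). That alternative gave 1546 rises (12.3%) and 1676 falls (13.3%) in 5637 cells, 3222 in all (25.6%), and 311 rises (2.47%) and 345 falls (2.74%) in UM-UC3 cells, 656 in all (5.21%).

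At most the 48 genes called in UM-UC3 cells could be called in both lines. Of these, 18 were also called in 5637 cells, beside 18.5% of all tested genes. Among the genes called in 5637 cells, 673 of 1104 that rose and 929 of 1223 that fell had a step of the same sign in UM-UC3 cells, with median steps of 1.17 against 0.15 and -1.13 against -0.24. Of the 34 genes that rose in UM-UC3 cells, 26 had a positive step in 5637 cells, and their medians were 2.38 and 0.61. Over all 12602 tested genes, 6291 steps were above 0 in 5637 cells and 5497 in UM-UC3 cells. A rise was called in each line for 12 genes (0.0952%) and a fall for 3 (0.0238%), and all 15 were also called when the DMSO libraries were added. Among the 12, HSPA6, ARC, SERPINI1 and PTP4A1 averaged below 1 FPKM over the libraries at 1 and 2 mM. These were tested only because of their values at 4 mM, so the filter favoured a rise. Another 3 genes were called in both lines in opposite directions, namely BHLHE40, KCNMA1 and INO80B-WBP1. The steps of both lines come from 1 fit with a common estimate of the spread, so these lists are not independent.

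**Figure D2:**
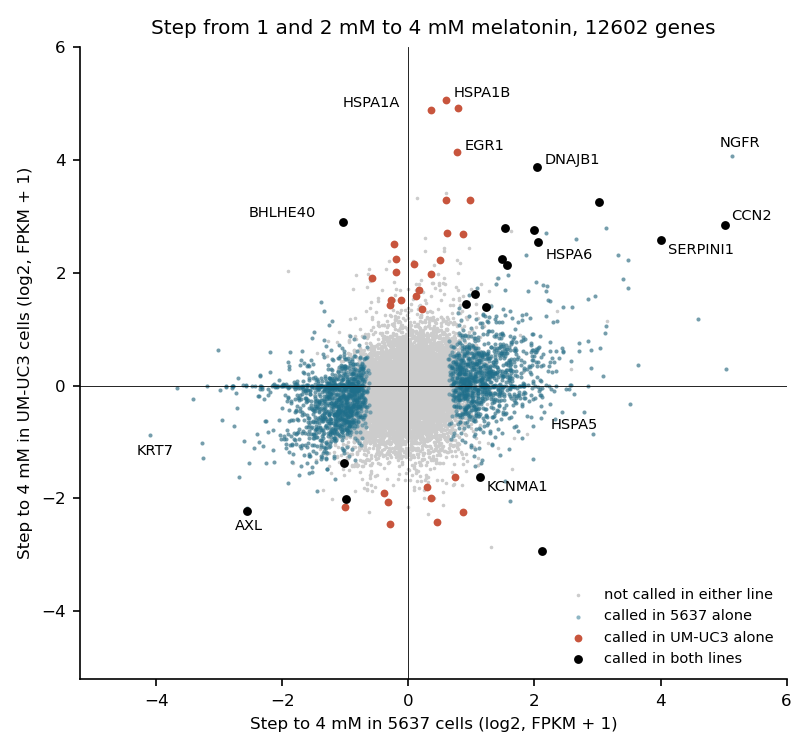
Step from 1 and 2 mM to 4 mM in 5637 cells (horizontal axis) and UM-UC3 cells (vertical axis), both as a difference of log2(FPKM + 1), with 1 point for each of 12602 genes. Black points were called in both lines, among them CCN2 at 5.01 and 2.84, AXL at -2.56 and -2.22 and BHLHE40 at -1.04 and 2.89, and red points, such as HSPA1A and EGR1, were called in UM-UC3 cells alone.

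The gene that fell over both lines was AXL, a receptor tyrosine kinase that binds GAS6 and marks invasive carcinoma cells (GRCh38, chr19:41219223-41261766, plus strand). Its FPKM was 64.3, 94.5, 80.6 and 14 in 5637 cells and 102, 85.8, 68.6 and 15.7 in UM-UC3 cells. In both lines the value at 4 mM lay far below all 3 lower doses, which overlapped between the lines. AXL fell by 2.39 on the log2 scale over both lines (standard error 0.183, adjusted p = 0.0386), by 2.56 in 5637 cells (adjusted p = 0.0106) and by 2.22 in UM-UC3 cells (adjusted p = 0.0279).

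FN1 and MYOF were the other genes that fell in both lines. FN1, which encodes the matrix protein fibronectin, stood at 99.0, 82.3, 79.7 and 39.6 FPKM in 5637 cells and at 11.7, 8.12, 7.43 and 2.38 in UM-UC3 cells. In each line 4 mM gave the lowest value although the lines differ several-fold in level, and the steps were -1.01 in 5637 cells (adjusted p = 0.0184) and -1.38 in UM-UC3 cells (adjusted p = 0.0468). MYOF, the membrane repair protein myoferlin, went from 65.2, 50.6 and 44.3 to 23.3 in 5637 cells and from 289, 205 and 139 to 41.4 in UM-UC3 cells. Here the values already declined from dose to dose below 4 mM, and the steps were -0.99 (adjusted p = 0.0472) and -2.0 (adjusted p = 0.0489).

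CCN2, which encodes the secreted matricellular protein CTGF and is a well known target of YAP and TEAD, had the largest step in 5637 cells of the 12 genes that rose in both lines. Its FPKM was 2.57, 3.87, 6.86 and 199 in 5637 cells and 46.3, 26.6, 34.5 and 223 in UM-UC3 cells. The lower doses differed between the lines by roughly an order of magnitude, whereas the values at 4 mM lay close together. CCN2 rose by 5.01 in 5637 cells (standard error 0.312, adjusted p = 0.00802) and by 2.84 in UM-UC3 cells (adjusted p = 0.0380). In UM-UC3 cells 1 and 2 mM lay below DMSO, so that the step ran against the direction of the low doses.

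The related CCN1 stood at 15.8, 30.3, 34.0 and 41.3 FPKM in 5637 cells and at 53.1, 50.1, 46.8 and 194 in UM-UC3 cells. It rose in UM-UC3 cells (1.98, adjusted p = 0.0246), where 4 mM stood apart from 3 near-equal values, and had a step of 0.35 in 5637 cells (adjusted p = 0.201). Of 20 tested genes of the YAP and TEAD list, 2 rose and 5 fell in 5637 cells, beside 8.76% and 9.7% of all tested genes. In UM-UC3 cells 2 rose and 2 fell, beside 0.27% and 0.111% of all tested genes. The list had median steps of -0.38 and -0.43, beside -0.00 and -0.05 over all genes tested. AXL and MYOF belong to that list as well. The rises were those of CCN2 and of TEAD1, a DNA-binding partner of YAP, in 5637 cells, and of CCN1 and CCN2 in UM-UC3 cells.

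SERPINI1, which encodes the protease inhibitor neuroserpin, was near 0 at the lower doses and clearly present at 4 mM. Its FPKM was 0.0651, 0.294, 0.393 and 20.7 in 5637 cells and 0.307, 0.548, 1.64 and 11.1 in UM-UC3 cells, with rises of 4.01 (adjusted p = 0.0106) and 2.58 (adjusted p = 0.0489). PTP4A1, which encodes the phosphatase PRL-1, went from 0.270, 0.602 and 2.29 to 17.8 FPKM in 5637 cells and from 1.38, 0.104 and 0.391 to 10.9 in UM-UC3 cells. It rose by 3.03 (adjusted p = 0.0145) and 3.26 (adjusted p = 0.0489). In 5637 cells PTP4A1 had begun to climb at 2 mM, and in UM-UC3 cells it dipped below DMSO before the step.

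GADD45B, a stress sensor that acts on MAP kinase kinases, stood at 4.38, 6.85, 11.7 and 38.8 FPKM in 5637 cells and at 7.21, 10.8, 11.0 and 79.8 in UM-UC3 cells, and rose by 1.99 (adjusted p = 0.0151) and 2.76 (adjusted p = 0.0340). DUSP5, a nuclear phosphatase of ERK, went from 4.26, 6.48 and 8.88 to 24 in 5637 cells and from 35.9, 27.2 and 44.4 to 246 in UM-UC3 cells, with steps of 1.54 (adjusted p = 0.0260) and 2.79 (adjusted p = 0.0401). RGS2, which shortens signals of G protein-coupled receptors, was flat at 7.36, 6.52 and 7.01 in 5637 cells before 20.7 at 4 mM. In UM-UC3 cells RGS2 went from 0.122, 0.432 and 0.412 to 5.73, and it rose in both lines by 1.48 (adjusted p = 0.0139) and 2.24 (adjusted p = 0.0246).

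ARC, an immediate early gene best known from neurons, was listed at 0.0111, 0, 0.0763 and 2.06 FPKM in 5637 cells and at 1.59, 1.14, 0.981 and 8.02 in UM-UC3 cells. CDKN2AIP, whose product binds the tumour suppressor ARF, a different protein from ARC, stood at 8.79, 9.76, 9.98 and 24.5 and at 6.0, 7.91, 7.82 and 22.4. The lower doses of CDKN2AIP formed a narrow band in each line, with 4 mM outside it, and its rises were 1.23 (adjusted p = 0.0146) and 1.40 (adjusted p = 0.0468). ARC rose by 1.56 (adjusted p = 0.0146) and 2.13 (adjusted p = 0.0340). NDUFA2, a subunit of respiratory complex I, went from 7.73, 11.1 and 12.9 to 23.5 and from 8.81, 13.4 and 14.9 to 40.4, with steps of 0.91 (adjusted p = 0.0259) and 1.45 (adjusted p = 0.0489). It was the only gene of 43 tested nuclear genes of the respiratory chain that rose in either line.

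With a pseudocount of 0.1, PTP4A1, NDUFA2 and MYOF no longer passed in UM-UC3 cells. The remaining 3 of the 12 were HSPA6, DNAJB1 and JMJD6. HSPA6, a stress-inducible HSP70 that is nearly silent in unstressed cells, stood at 0.532, 0.635, 0.603 and 5.72 FPKM in 5637 cells and at 0.556, 0.168, 0.244 and 6.05 in UM-UC3 cells. Both 4 mM libraries reached nearly the same level from a base below 1, and the rises were 2.05 (adjusted p = 0.0139) and 2.55 (adjusted p = 0.0237). DNAJB1, the HSP40 that delivers clients to HSP70, went from 58.5, 61.6 and 73.9 to 281 in 5637 cells and from 26.0, 25.3 and 31.8 to 428 in UM-UC3 cells. It rose by 2.04 (adjusted p = 0.0139) and 3.87 (adjusted p = 0.00358), and the difference of 1.83 between the lines did not pass (adjusted p = 0.0675). JMJD6, a hydroxylase of the JmjC family, stood at 15, 13.1, 15.1 and 30.2 and at 4.73, 5.35, 6.37 and 20.0, with rises of 1.05 (adjusted p = 0.0216) and 1.62 (adjusted p = 0.0468).

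Other chaperones of the cytosol rose in UM-UC3 cells alone. HSPA1A, the main inducible HSP70, was at 2.45, 3.63, 3.62 and 4.93 FPKM in 5637 cells and at 0.829, 0.519, 1.01 and 50.8 in UM-UC3 cells. HSPA1B, its near-identical neighbour, was at 34.4, 41.5, 45.3 and 66.2 and at 3.07, 3.45, 5.60 and 179. The reads of these copies can be split between them in ways the deposited values do not show, so the level of either alone is uncertain. In UM-UC3 cells HSPA1A rose by 4.89 (standard error 0.244, adjusted p = 0.00214) and had a step of 0.36 in 5637 cells (adjusted p = 0.324). HSPA1B rose by 5.06 (standard error 0.257, adjusted p = 0.00214), beside 0.60 in 5637 cells (adjusted p = 0.144). The differences of 4.53 (adjusted p = 0.0417) and 4.46 (adjusted p = 0.0426) between the lines passed the test.

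HSP90AA1, the inducible cytosolic HSP90, stayed between 1131 and 1252 FPKM over all doses of 5637 cells, while in UM-UC3 cells it was 216, 186, 173 and 802. The UM-UC3 library at 4 mM thus came nearer to the level that 5637 cells had at every dose, and HSP90AA1 rose by 2.15 (adjusted p = 0.0248) against 0.09 in 5637 cells (adjusted p = 0.764). CHORDC1, a cochaperone of HSP90, was at 67.8, 65.0, 52.3 and 63.5 and at 28.8, 22, 21.9 and 67.7, and rose in UM-UC3 cells only (1.58, adjusted p = 0.0468). The differences between the lines were 2.06 (adjusted p = 0.0541) and 1.46 (adjusted p = 0.0741) for these genes and did not pass.

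HSPE1, the cochaperonin of the mitochondrial chaperonin HSPD1, went the other way in 5637 cells. It stood at 156, 131, 89.4 and 40.9 FPKM there and at 57.9, 47.5, 44.0 and 130 in UM-UC3 cells. The value at 4 mM was the lowest of the dose series in 5637 cells and the highest in UM-UC3 cells, with a 5637 step of -1.38 (adjusted p = 0.0208), a UM-UC3 step of 1.49 (adjusted p = 0.0738) and a difference of 2.87 (adjusted p = 0.0458). HSPD1 itself was at 374, 332, 231 and 227 and at 362, 361, 354 and 420, with steps of -0.29 and 0.23.

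Of 16 tested genes of the cytosolic heat shock list, 2 rose and 1, HSPE1, fell in 5637 cells, where 8.76% and 9.7% of all tested genes did. The list thus also holds a cochaperonin of the mitochondria. In UM-UC3 cells 5 of the 16 rose and 0 fell, where 0.27% and 0.111% of all tested genes did, and the medians were -0.16 and 0.91. Members that did not pass included the constitutive HSPA8 (steps -0.95 and 0.78), HSPH1 (-0.11 and 1.03), BAG3 (0.23 and 0.31) and the small chaperone HSPB1 (-1.27 and 0.78). The transcript of the heat shock factor HSF1 stood at 38.1, 31.7, 36.2 and 24.5 FPKM in 5637 cells and at 52.7, 57.3, 54.5 and 49.3 in UM-UC3 cells, with steps of -0.45 and -0.18 that did not pass.

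**Figure D3:**
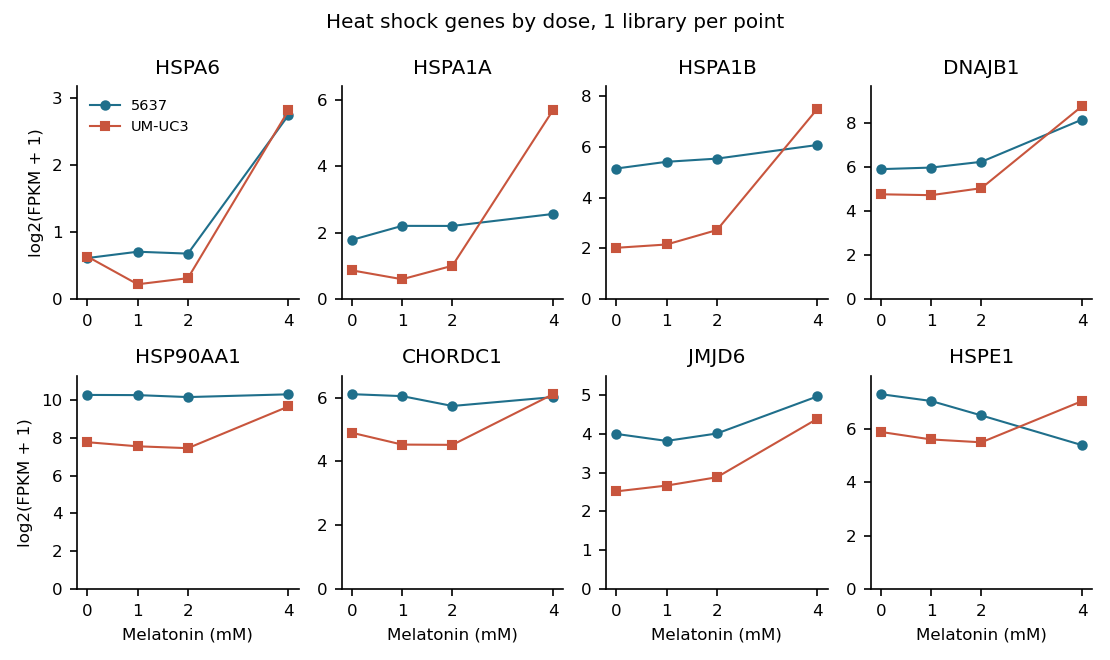
Expression of 8 chaperone genes and cofactors as log2(FPKM + 1) (vertical axis) against the melatonin dose in mM (horizontal axis), 1 library per point, for 5637 (circles) and UM-UC3 cells (squares). HSPA6 and DNAJB1 are flat to 2 mM and rise at 4 mM in both lines, HSPA1A, HSPA1B, HSP90AA1 and CHORDC1 step up in UM-UC3 cells, and HSPE1 falls in 5637 cells.

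The promoters of 3 of the genes that rose in UM-UC3 cells are shown because they hold letters of the kind heat shock factors are known to bind, GAA and TTC units in alternating order with 2 bases between them. The stretches are the 140 bases before the gene start in RefSeq (GRCh38.p14), written 5′ to 3′ on the strand of the gene, with the matched letters in capitals. HSPA6 lies at chr1:161524400-161524539 (plus strand) and CHORDC1 at chr11:90223050-90223189 (minus strand), and both match the motif of 3 units. HSPA1A lies at chr6:31815403-31815542 (plus strand) and matches the motif of 2 units, GAANNTTC or TTCNNGAA, with N for any base. The motif of 3 units is the same with 1 further unit in alternation after 2 more bases, so it contains the shorter motif. The units read the same way on either strand in turn, so both strands were covered.
HSPA6: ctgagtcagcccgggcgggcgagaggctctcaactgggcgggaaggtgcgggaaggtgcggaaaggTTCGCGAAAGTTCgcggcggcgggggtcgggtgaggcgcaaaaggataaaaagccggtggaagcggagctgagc
CHORDC1: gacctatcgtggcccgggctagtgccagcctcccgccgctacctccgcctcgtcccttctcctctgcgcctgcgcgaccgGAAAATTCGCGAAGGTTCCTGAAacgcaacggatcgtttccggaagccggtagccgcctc
HSPA1A: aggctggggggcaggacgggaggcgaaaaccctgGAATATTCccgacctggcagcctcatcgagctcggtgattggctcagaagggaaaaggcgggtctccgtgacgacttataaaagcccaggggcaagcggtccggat

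Over the 250 bases before the start, 0.439% of 27305 RefSeq promoters and 0.262% of the 9533 promoters of tested genes held the motif of 3 units, as did 2 of the 19 promoters matched to genes that rose in UM-UC3 cells (10.5%). The motif of 2 units was in 11.7% of all promoters, in 8.25% of those of tested genes and in 4 of the 19 (21.1%), namely those of CHORDC1, HSPA1A, HSPA1B and HSPA6. HSPA6, which counts in the shares of both motifs, was tested only because of its values at 4 mM. Of the 11 promoters matched to genes that fell in UM-UC3 cells, 0 held the longer motif and 3 (27.3%) the shorter one. Among the genes that rose in 5637 cells 0.355% of 845 promoters held the longer motif, and among those that fell 0.511% of 979. The windows were matched by gene symbol, and 19 of the 34 genes that rose in UM-UC3 cells had an entry. The promoters of DNAJB1 and HSP90AA1, also among the 19, held neither motif. HSPA1A and HSPA1B, both among the 4 with the shorter motif, are near-identical neighbouring genes. The promoter of HSPA8, which did not pass in either line, also held the motif of 3 units. These matches describe letters in a window and were not tested as sites.

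In 5637 cells genes of the ER and integrated stress responses rose. HSPA5, the ER chaperone BiP, stood at 278, 259, 242 and 1118 FPKM there, flat until the last dose. In UM-UC3 cells it was 641, 1227, 1303 and 915, highest at 1 and 2 mM. HSPA5 rose by 2.16 in 5637 cells (standard error 0.203, adjusted p = 0.0129) with a step of -0.47 in UM-UC3 cells (adjusted p = 0.216), and the difference of -2.62 passed (adjusted p = 0.0458). DNAJC3, a cochaperone of BiP, had the same form, with 22.2, 25.6, 28.1 and 85.2 in 5637 cells and 26.7, 44.8, 46.2 and 38.8 in UM-UC3 cells. DNAJC3 rose by 1.63 in 5637 cells (adjusted p = 0.0139) and differed by -1.85 (adjusted p = 0.0473).

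Of 27 tested genes of the unfolded protein response of the ER, 13 rose and 0 fell in 5637 cells, where 8.76% and 9.7% of all tested genes did, with a median step of 1.00 and 25 of 27 steps above 0. In UM-UC3 cells 0 passed in either direction, beside 0.381% of all tested genes, so the 0 does not set this list apart. The median there was -0.41, and 6 of 27 steps were above 0. By role, 3 of 5 sensors and transcription factors, 8 of 16 chaperones and folding enzymes and 2 of 6 genes of degradation from the ER rose in 5637 cells. They included XBP1, the transcription factor spliced by IRE1, at 33.3, 28.4, 44.6 and 159 FPKM in 5637 cells and 45.8, 79.3, 93.6 and 83.7 in UM-UC3 cells (2.12, adjusted p = 0.0139, and -0.04). EIF2AK3, which encodes the sensor kinase PERK, rose by 1.55 in 5637 cells (adjusted p = 0.0139), and the step in UM-UC3 cells minus that in 5637 cells was -2.04 (adjusted p = 0.0458).

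Some ER genes went past their DMSO level in UM-UC3 cells at low doses and came back at 4 mM. PDIA4, a disulfide isomerase, stood at 111, 199, 136 and 77.4 FPKM in these cells and at 119, 108, 94.1 and 202 in 5637 cells. SDF2L1, part of the BiP complex, was at 12.2, 25.3, 14.5 and 8.25 beside 12.7, 11.9, 8.61 and 18.1. FICD, the enzyme that attaches AMP to BiP, was at 3.21, 5.36, 8.84 and 2.72 beside 0.890, 1.49, 1.64 and 4.29. All 3 were above DMSO at 1 and 2 mM and below it at 4 mM in UM-UC3 cells, whereas in 5637 cells 4 mM was the highest dose. The UM-UC3 steps, of -1.08, -1.12 and -1.09, did not pass (adjusted p from 0.101 to 0.127), and only the rise of PDIA4 in 5637 cells did (1.00, adjusted p = 0.0472), which no longer passed with the DMSO libraries added. These genes were chosen by the size of their reversal after their values were seen.

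DNAJB9 and HERPUD1, which act in degradation from the ER, climbed at each dose in both lines. DNAJB9 went from 2.17, 2.35 and 5.42 to 39.2 FPKM in 5637 cells and from 6.59, 14 and 34.7 to 43.2 in UM-UC3 cells. HERPUD1 stood at 10.5, 12.3, 20.3 and 108 and at 56.4, 59.0, 95.8 and 128. The lines ended near the same level, and in UM-UC3 cells both were already well above DMSO at 2 mM. Their rises in 5637 cells were 3.12 (adjusted p = 0.0197) and 2.70 (adjusted p = 0.0139), while neither UM-UC3 step, 0.93 and 0.75, passed.

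Of 21 tested genes of the integrated stress response, 13 rose and 1 fell in 5637 cells (median step 1.55), beside 8.76% and 9.7% of all tested genes. In UM-UC3 cells 0 of the 21 passed, beside 0.381% of all tested genes, and the list had a median step of 0.21. DDIT3, the transcription factor CHOP, stood at 3.22, 3.39, 9.74 and 75.8 FPKM in 5637 cells and at 110, 179, 488 and 1391 in UM-UC3 cells. It was higher in UM-UC3 cells before treatment than in 5637 cells at 4 mM, climbed at every dose in both lines and rose by 3.48 in 5637 cells (adjusted p = 0.0228). CHAC1, which degrades glutathione, separated the lines, with 0.553, 3.51, 25.3 and 124 in 5637 cells and 7.42, 11.8, 15.2 and 10.4 in UM-UC3 cells. CHAC1 rose by 3.52 in 5637 cells (adjusted p = 0.0414) beside -0.33, and the difference of -3.85 did not pass (adjusted p = 0.126). The kinase gene EIF2AK4, which encodes GCN2, was the gene that fell in 5637 cells (-0.84, adjusted p = 0.0282). ATF4 itself, at 75.9, 95.1, 174 and 272 and at 260, 297, 371 and 686, had steps of 1.07 (adjusted p = 0.0824) and 1.04 (adjusted p = 0.154). With a pseudocount of 0.1 the rise of CHAC1 in 5637 cells no longer passed.

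**Figure D4:**
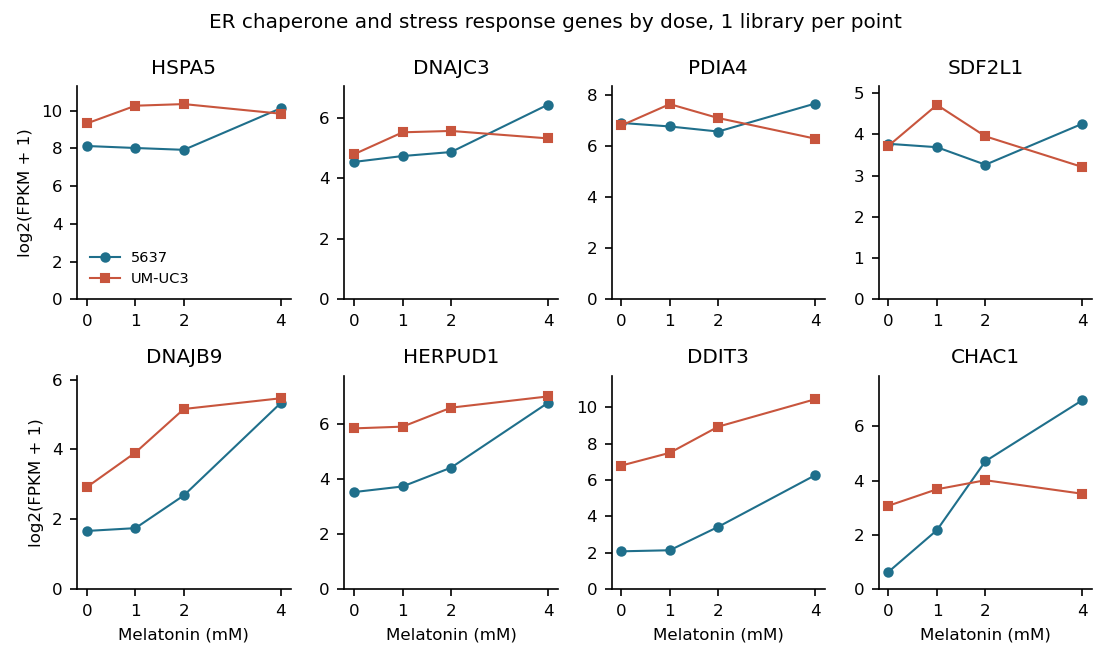
Expression of 8 genes of the ER and integrated stress responses as log2(FPKM + 1) (vertical axis) against the melatonin dose in mM (horizontal axis), 1 library per point, for 5637 (circles) and UM-UC3 cells (squares). HSPA5, DNAJC3, PDIA4 and SDF2L1 are highest at 1 or 2 mM in UM-UC3 cells and at 4 mM in 5637 cells, and DNAJB9, HERPUD1 and DDIT3 climb in both.

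Of the immediate early genes, EGR1 and IER2 rose in UM-UC3 cells. EGR1, a zinc finger factor, stood at 6.42, 21.1, 19.9 and 35.8 FPKM in 5637 cells and at 3.42, 13.1, 21.4 and 312 in UM-UC3 cells. Both lines were above DMSO at 1 and 2 mM to a like degree and parted at 4 mM, with a rise of 4.13 in UM-UC3 cells (adjusted p = 0.00829), a step of 0.78 in 5637 cells (adjusted p = 0.0994) and a difference of 3.36 (adjusted p = 0.0458). IER2 went from 21.3, 24.7 and 47.4 to 343 in UM-UC3 cells (3.29, adjusted p = 0.0401) and from 13.7, 16.4 and 20.9 to 37.7 in 5637 cells (0.98, adjusted p = 0.108). NAB2, which binds EGR1 and represses it, rose in UM-UC3 cells as well (1.91, adjusted p = 0.0246), from 14.8, 22.3 and 24.7 to 91.1. In 5637 cells NAB2 was at 7.67, 9.84, 10.5 and 6.47, and the difference of 2.49 passed (adjusted p = 0.0458).

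In all, 4 of 16 tested immediate early factors rose and 0 fell in 5637 cells, beside 8.76% and 9.7% of all tested genes. In UM-UC3 cells 2 of the 16 rose, beside 0.27% of all tested genes, and the list medians were 0.78 and 1.16. The 4 that rose in 5637 cells were JUN and JUND of the AP-1 family, KLF4 and NR4A2. JUN stood at 13.8, 18.7, 26.4 and 51.4 FPKM in 5637 cells and at 56.4, 56.7, 57.4 and 124 in UM-UC3 cells, flat in the latter until 4 mM, with steps of 1.17 (adjusted p = 0.0237) and 1.11 (adjusted p = 0.0857). FOS had no clear order in UM-UC3 cells (26.0, 51.1, 7.13 and 137), and its steps of 1.62 and 2.75 did not pass. Of 12 tested feedback genes of the MAP kinases, 4 rose and 1 fell in 5637 cells, beside 8.76% and 9.7% of all tested genes. In UM-UC3 cells 1, DUSP5, rose, beside 0.27% of all tested genes. DUSP1, the inducible MAP kinase phosphatase, was at 3.28, 2.48, 4.42 and 14.8 and at 27.6, 33.1, 66.7 and 237 and rose in 5637 cells (1.87, adjusted p = 0.0341), beside 2.31 in UM-UC3 cells (adjusted p = 0.0827). DUSP10, a phosphatase of p38 and JNK, fell in 5637 cells (-1.06, adjusted p = 0.0272).

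BHLHE40, a repressor of the circadian clock, was called in opposite directions. Its FPKM was 8.61, 9.47, 11.7 and 4.60 in 5637 cells and 6.55, 7.30, 9.96 and 69.9 in UM-UC3 cells. The lower doses of both lines overlapped and climbed alike, and 4 mM then lay below them in 5637 cells (-1.04, adjusted p = 0.0337) and above them in UM-UC3 cells (2.89, adjusted p = 0.0235). KCNMA1, the pore of a calcium-activated potassium channel, did the reverse, with 1.21, 0.720, 0.885 and 2.98 in 5637 cells (1.14, adjusted p = 0.0183) and 67.7, 61.1, 55.9 and 18.4 in UM-UC3 cells (-1.62, adjusted p = 0.0427). INO80B-WBP1, a readthrough transcript of overlapping genes, was listed at 0 in 5637 cells at 0 and 1 mM and in UM-UC3 cells at 4 mM, and its values are uncertain.

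The step differed between the lines for 52 genes (0.413%), 30 higher in UM-UC3 cells (0.238%) and 22 lower (0.175%). None of these 52 passed with a pseudocount of 0.1. Beside the chaperones, those higher in UM-UC3 cells included genes that UM-UC3 cells hardly express and that fell in 5637 cells. KRT7, a keratin of the urothelium, stood at 784, 671, 510 and 33.0 FPKM in 5637 cells and at 4.87, 1.35, 0.635 and 0.0697 in UM-UC3 cells, with a step of -4.11 in 5637 cells (standard error 0.279, adjusted p = 0.00802). ANXA8L1, an annexin with a near-identical copy in ANXA8, went from 63.8, 73.6 and 55.0 to 4.07 in 5637 cells (-3.67, adjusted p = 0.00802) and was at or near 0 in UM-UC3 cells. For genes near 0 in UM-UC3 cells the difference repeats the step in 5637 cells.

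NFKBIA and CXCL1, both tied to NF-kappaB, show a difference with expression in both lines. NFKBIA, the inhibitor of NF-kappaB, was at 63.9, 56.1, 73.4 and 24.9 FPKM in 5637 cells (-1.33, adjusted p = 0.0174) and at 19.8, 16.5, 14.5 and 40.0 in UM-UC3 cells (1.32, adjusted p = 0.0738), a difference of 2.65 (adjusted p = 0.0458). CXCL1, a chemokine for neutrophils, went from 39.0, 32.3 and 35.6 to 5.81 in 5637 cells (-2.36, adjusted p = 0.0134) and was between 4.81 and 8.43 in UM-UC3 cells, a difference of 2.54 (adjusted p = 0.0458). Of 13 tested cytokines and chemokines, 0 passed in UM-UC3 cells, beside 0.381% of all tested genes. In 5637 cells 6 fell and 1, CCL20, rose, beside 9.7% and 8.76% of all tested genes. The others that fell were LIF (-2.36), IL1B (-1.99), IL32 (-1.60), IL1A (-1.59) and CXCL5 (-0.89).

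Among the genes whose step was lower in UM-UC3 cells were long noncoding RNAs. NBR2, which neighbours BRCA1, stood at 4.44, 5.39, 8.40 and 29.4 FPKM in 5637 cells and at 9.02, 11.8, 10.7 and 3.94 in UM-UC3 cells (1.97, adjusted p = 0.0139, and -1.31, adjusted p = 0.0840). MIR22HG, the host of a microRNA, was at 0.826, 1.32, 2.61 and 7.39 and at 13.4, 13.1, 13.1 and 3.36 (1.54, adjusted p = 0.0218, and -1.69, adjusted p = 0.0749). In both, 4 mM was the highest dose of 5637 cells and the lowest of UM-UC3 cells. PURPL, a noncoding RNA induced by p53, went from 16.7, 16.8 and 12.2 to 1.86 in UM-UC3 cells (-2.42, adjusted p = 0.0340) and was listed at 0 in 5637 cells below 4 mM. Of 704 tested long noncoding RNAs, 1 rise and 7 falls passed in UM-UC3 cells, where the median step was -0.30, beside 0.27% and 0.111% of all tested genes. In 5637 cells 55 rises and 33 falls passed, beside 8.76% and 9.7% of all tested genes, and the median was 0.14.

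Small nucleolar RNAs (snoRNAs), which guide the modification of ribosomal RNA and are cut from the introns of host genes, made up 6 of the 34 rises in UM-UC3 cells. Of 943 annotated snoRNAs, 41 were tested, and 0 fell in UM-UC3 cells, while 1 rose and 2 fell in 5637 cells. Of all tested genes 0.27% rose and 0.111% fell in UM-UC3 cells, and 8.76% rose and 9.7% fell in 5637 cells. The filter on the mean used the 4 mM libraries too, and 9 of the 41 averaged below 1 FPKM over the 4 libraries at 1 and 2 mM, so they were tested only because of their values at 4 mM. SNORD14E, SNORA20 and AF111168.1 are among these 9, and the other 3 that rose belong to the 32 that averaged at least 1 at the low doses. SNORD14E, in an intron of HSPA8, stood at 0.0928, 0.548, 0.422 and 43.7 FPKM in UM-UC3 cells and at 0.674, 0.496, 0.453 and 1.53 in 5637 cells, with a rise of 4.91 (adjusted p = 0.00214) and a difference of 4.13 (adjusted p = 0.0417). SNORD100 and SNORD101, both in RPS12, went from 2.81, 2.99 and 4.07 to 28.5 and from 2.62, 1.19 and 2.13 to 15.8 in UM-UC3 cells (2.71 and 2.68, adjusted p = 0.0246 and 0.0340). The others were SNORD59A in ATP5F1B, SNORA20 in TCP1, and AF111168.1 in AHSA1, an activator of HSP90.

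None of the 5 host genes passed in UM-UC3 cells, where the steps were 0.78 for HSPA8, 1.15 for RPS12, 0.95 for AHSA1, 0.48 for TCP1 and -0.26 for ATP5F1B. The 6 annotated snoRNAs span 73 to 153 bases, and reads from the snoRNA and from unspliced RNA of its host cannot be told apart in these values. According to the methods of the study, poly(A) mRNA was isolated before the libraries were made. The values of the snoRNA entries may therefore not measure the processed snoRNAs. Over the 75 tested ribosomal protein genes the UM-UC3 median was 0.46, with 73 of 75 steps above 0 and none called, and that of 5637 cells was -0.05, with RPL35 called as a fall (-0.88, adjusted p = 0.0472). Among 15 tested long noncoding hosts of snoRNAs, 6 rose in 5637 cells, GAS5 and SNHG1 among them (1.48 each). The share of rises over every tested gene was 8.76% there. In UM-UC3 cells 0 hosts rose, against a share of 0.27%, so this 0 does not separate the lines. The medians lay close together, at 0.62 and 0.58, with 13 and 12 of the 15 steps above 0. For the difference between the lines, 0 of the 15 passed.

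By the size and direction of the step alone, 1737 genes moved by at least 1 on the log2 scale in 5637 cells (13.8%) and 824 in UM-UC3 cells (6.54%). Of these, 183 moved alike in both lines (1.45%), 84 up (0.667%) and 99 down (0.786%), and 30 in opposite directions (0.238%). Of the 183, 30 had moved by under 0.5 at both 1 and 2 mM in both lines and so stood apart only at 4 mM, 14 up and 16 down. A further 33 had already moved in the direction of the step, 15 up and 18 down, and 1 had moved against it. AXL, the single gene called over both lines, belongs to none of these classes, which were therefore filled by size after the values were seen and carry no test.

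The 14 upward genes that stood apart only at 4 mM include HSPA6, DNAJB1, RGS2, ARC, JMJD6 and CDKN2AIP, described above. ISG15, the ubiquitin-like protein of the interferon response, was flat at 20.4, 15.8 and 17.3 FPKM in 5637 cells before 42.8 at 4 mM, and at 1.97, 2.00 and 1.71 in UM-UC3 cells before 6.56, with steps of 1.32 (adjusted p = 0.0151) and 1.40 (adjusted p = 0.0574). PLAUR, the receptor of urokinase, was at 39.3, 32.6, 47.2 and 104 and at 21.1, 17.4, 22.8 and 44.9 (1.39, adjusted p = 0.0231, and 1.13, adjusted p = 0.0985). CKS2, a subunit of cyclin-dependent kinases, was at 89.9, 85.9, 90.5 and 201 and at 24.7, 28.1, 33.3 and 74.0 (1.2, adjusted p = 0.0173, and 1.25, adjusted p = 0.0691). In each, the lower doses stayed together and 4 mM was the highest value of its line. AC005192.1 was listed at 0 in 5637 cells at 0, 1 and 2 mM and at 23.1 at 4 mM, and in UM-UC3 cells it went from 0.124, 0.104 and 0.103 to 1.49. Like HSPA6 and ARC, it was tested only because of its values at 4 mM.

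The 16 downward genes of this kind include LAMA5, LAMB2 and PTPRF, and no shared role of the 16 was tested. LAMA5, a laminin chain, was at 62.1, 58.0, 44.6 and 10.9 FPKM in 5637 cells and at 6.02, 7.23, 5.91 and 1.95 in UM-UC3 cells (-2.13, adjusted p = 0.0139, and -1.35, adjusted p = 0.0738). LAMB2, another laminin chain, was at 10.4, 12.7, 11.8 and 3.11 and at 34.8, 33.6, 25.7 and 13.6 (-1.69, adjusted p = 0.0139, and -1.06, adjusted p = 0.0845). PTPRF, a receptor tyrosine phosphatase at cell contacts, was at 33.1, 28.4, 27.4 and 8.53 and at 53.8, 48.2, 39.2 and 16.1 (-1.60, adjusted p = 0.0139, and -1.38, adjusted p = 0.0598). For all 3 the value at 4 mM was the lowest of its line by a wide margin, and the fall passed in 5637 cells alone. PLXND1, a receptor of semaphorins (-1.33 and -1.10), PDGFC, a growth factor (-1.38 and -1.31), and HIPK2, a kinase that phosphorylates p53 (-1.24 and -1.01), belong here too, and fell in 5637 cells (adjusted p from 0.0160 to 0.0202).

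Of the genes that had moved before 4 mM, NGFR, the low-affinity receptor of nerve growth factor, had the largest step, from 0.0947, 0.330 and 4.70 to 95.7 FPKM in 5637 cells and from 0.490, 1.28 and 6.13 to 66.9 in UM-UC3 cells. It rose in 5637 cells (5.13, adjusted p = 0.0199), and its step in UM-UC3 cells was 4.07 (adjusted p = 0.0896). PEG10, derived from a retrotransposon, was at 82.7, 183, 261 and 1389 and at 8.03, 17.9, 52.8 and 191, with steps of 2.66 (adjusted p = 0.0287) and 2.59 (adjusted p = 0.0889). In the downward direction CAV1, the coat protein of caveolae, was at 383, 341, 153 and 34.7 and at 131, 56.5, 21.8 and 10.8 (-2.69, adjusted p = 0.0341, and -1.62, adjusted p = 0.180). These genes formed ordered dose series in both lines, so that 4 mM continued what 1 and 2 mM had begun. TP63, a master factor of basal epithelium, went from 54.4, 33.3 and 21 to 1.83 in 5637 cells (-3.28, adjusted p = 0.0168). With a pseudocount of 0.1 the rise of NGFR no longer passed in 5637 cells.

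Reversals were seen mainly within a single line. Of the 2327 genes called in 5637 cells, 743 stood apart only at 4 mM, 474 continued and 45 reversed, 21 upward and 24 downward. Of the 48 called in UM-UC3 cells, 28 stood apart only at 4 mM, 12 continued and 2, CCN2 and PTP4A1, reversed. The step and the low-dose difference from DMSO use the same libraries at 1 and 2 mM, so the counts of reversals and of continued steps are not independent of it.

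Among the downward reversals of 5637 cells, F2R, the thrombin receptor PAR1, was at 13.9, 26.3, 20.3 and 2.1 (-2.96, adjusted p = 0.0106), and UCA1, a long noncoding RNA named for urothelial cancer, at 164, 186, 298 and 53.4 (-2.12, adjusted p = 0.0139). For F2R and UCA1 both low doses exceeded DMSO and 4 mM lay below it. ABCC3, a transporter of organic anions, reversed in 5637 cells (4.39, 7.43, 10.3 and 1.61) and had a flat base in UM-UC3 cells (3.27, 4.15, 3.55 and 0.459), with steps of -1.90 (adjusted p = 0.0139) and -1.73 (adjusted p = 0.0691). MT2A, a metallothionein that binds zinc, was at 365, 680, 678 and 284 in 5637 cells (-1.26, adjusted p = 0.0224) but at 558, 887, 1166 and 2155 in UM-UC3 cells. With the DMSO libraries added to the low doses, the fall of MT2A in 5637 cells no longer passed.

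Upward reversals of 5637 cells included PTGS2, which encodes the cyclooxygenase COX-2, at 14.1, 6.23, 8.30 and 23.9 FPKM (1.60, adjusted p = 0.0167). HK2, the hexokinase of proliferating cells, was at 11.4, 6.67, 5.44 and 15.7 (1.25, adjusted p = 0.0383), and UM-UC3 cells had 32.7, 33.0, 54.6 and 113. EFNB1, an ephrin, was at 28.5, 11.8, 12.6 and 27.9 (1.13, adjusted p = 0.0173). The low doses lay below DMSO in all 3, and 4 mM came back to the DMSO level for EFNB1 and exceeded it for the others. The steps of HK2 and EFNB1 no longer passed with the DMSO libraries added. Only RPL36A-HNRNPH2, a readthrough of overlapping genes, reversed in both lines by size, with 2.67, 0.907, 1.44 and 5.43 and with 6.16, 1.73, 2.76 and 11.5, and reads of its parts cannot be told apart from its own.

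Among the enzymes of glycolysis, ENO1, which makes phosphoenolpyruvate, stood at 886, 721, 533 and 331 FPKM in 5637 cells and at 684, 644, 562 and 361 in UM-UC3 cells. It was lower at each dose than at the dose before in both lines, with steps of -0.90 (adjusted p = 0.0524) and -0.73 (adjusted p = 0.152) and -0.82 over both (standard error 0.203, adjusted p = 0.0933), none of which passed. With the DMSO libraries added to the low doses the step of ENO1 over both lines was -0.94 and passed (adjusted p = 0.0306), the lowest of 15 alternatives that ran up to an adjusted p of 0.999. PPARG, a nuclear receptor of lipid metabolism, was at 53.4, 33.2, 29.7 and 10.3 and at 7.88, 7.71, 10.1 and 5.33. It fell in 5637 cells (-1.51, adjusted p = 0.0150), beside -0.64 in UM-UC3 cells (adjusted p = 0.151). The 24 tested glycolysis genes had median steps of -0.32 and -0.15, beside -0.00 and -0.05 over all genes tested. Of these 24, 3 rose and 5 fell in 5637 cells, beside 8.76% and 9.7% of all tested genes. Those that fell were GPI (-1.23), PFKM (-1.19), PFKL (-1.08), HK1 (-1.05) and LDHB (-1.0), and those that rose were HK2 (1.25), the lactate exporter SLC16A3 (0.82) and the glucose transporter SLC2A1 (0.70). In UM-UC3 cells 0 of the 24 passed, beside 0.381% of all tested genes.

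Of 34 tested mitosis genes 0 passed in either line, with a median step of -0.10 in 5637 cells and of -0.94 in UM-UC3 cells, where all 34 steps were below 0. PLK1, a mitotic kinase, was at 67.4, 51.9, 32.4 and 24.7 FPKM and at 31.2, 22.1, 12.5 and 5.99, with steps of -0.71 and -1.34. Of 35 tested DNA replication genes, 7 fell and 2 rose in 5637 cells, where 9.7% and 8.76% of all tested genes did, and 0 passed in UM-UC3 cells (medians -0.69 and -0.62). UHRF1, which maintains DNA methylation, was at 58.2, 46.5, 35.9 and 7.15 and at 8.60, 4.45, 1.62 and 0.887 and fell in 5637 cells (-2.36, adjusted p = 0.0197). The 2 that rose were GINS4 (1.22) and CDC6 (0.82). Of the CDK inhibitors, CDKN1C (2.79), CDKN2B (2.56) and CDKN2D (1.61) rose in 5637 cells and CDKN2A fell (-1.33). CDKN1A, which encodes p21, was at 18.1, 22.9, 68.7 and 208 and at 11.5, 19.7, 62.9 and 89.6, with steps of 2.36 (adjusted p = 0.0792) and 1.32 (adjusted p = 0.336).

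Of 14 tested genes of fatty acid synthesis 5 fell and 2 rose in 5637 cells (median -0.58), where 9.7% of all tested genes fell and 8.76% rose. Of 30 genes of cholesterol synthesis and uptake 8 fell and 3 rose in that line (median -0.16). In UM-UC3 cells 0 of either list passed, beside 0.381% of all tested genes. The desaturase gene FADS2 was at 39.9, 32.2, 29.4 and 6.96 FPKM in 5637 cells (-2.0, adjusted p = 0.0139) and at 5.41, 4.47, 2.83 and 2.47 in UM-UC3 cells. SREBF2, the master factor of cholesterol synthesis, was at 27.3, 22.3, 20.4 and 6.25 and at 42.2, 34.5, 26.2 and 24.3 and fell in 5637 cells (-1.62, adjusted p = 0.0139). For both genes the lower doses of 5637 cells lay within a narrow range and 4 mM far beneath it.

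Keratin genes fell in 5637 cells as well. Of 12 tested epithelial markers 5 fell and 1 rose in 5637 cells, where 9.7% and 8.76% of all tested genes did. The falls were those of KRT7, KRT19 (-1.79), KRT5 (-1.77), KRT18 (-1.39) and KRT8 (-1.07), and the rise was that of OCLN (1.19). Over 5 tested genes of caveolae the medians were -1.69 and -1.11. CAV1, CAV2 (-1.94) and EHD2 (-1.69) fell in 5637 cells, where 9.7% of all tested genes did. Of 11 tested mesenchymal markers, 3 rose in 5637 cells, SNAI1 (1.53) and ZEB1 (1.21) among them, and 2 fell (CDH2 and FN1). Of all tested genes 8.76% rose and 9.7% fell in that line. FN1 also fell in UM-UC3 cells, where 0.111% of all tested genes did.

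Genes of cell death and their regulators moved in both directions in 5637 cells, where 8 of 30 tested apoptosis genes rose and 3 fell, beside 8.76% and 9.7% of all tested genes. BBC3, which encodes the death inducer PUMA (1.82), BCL2L11, which encodes BIM (1.53), and the death receptor TNFRSF10B (1.74) rose, as did the protective BCL2A1 (3.13) and MCL1 (0.86). BID (-1.75), BCL2L1 (-1.03) and TNFRSF1A (-0.80) fell. Of 18 tested p53 targets 5 rose and 0 fell in 5637 cells. In UM-UC3 cells 0 of either list passed, beside 0.381% of all tested genes. In 5637 cells 4 of 31 tested proteasome genes, 5 of 35 genes of ribosome biogenesis and 5 of 28 genes of pyruvate entry and the TCA cycle fell, and 0, 0 and 2 rose. Of all tested genes 9.7% fell and 8.76% rose in that line. None of these genes passed in UM-UC3 cells. Of the 2 tested genes of melatonin metabolism and binding, NQO2 and AHR, 0 passed in either line.

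**Figure D5:**
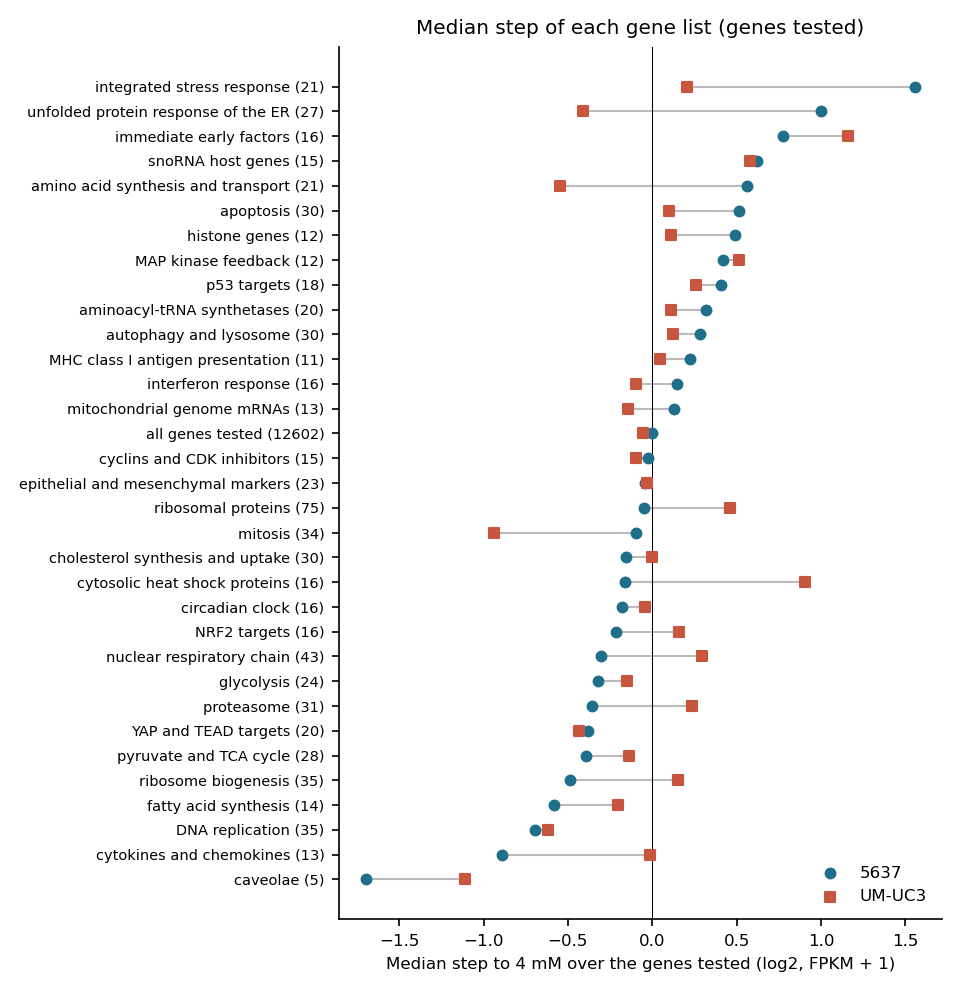
Median step from 1 and 2 mM to 4 mM (horizontal axis, difference of log2(FPKM + 1)) over the tested genes of each list (vertical axis, number of genes in brackets), for 5637 (circles) and UM-UC3 cells (squares). The lines lie far apart for the unfolded protein response of the ER (1.00 and -0.41), the integrated stress response (1.55 and 0.21), cytosolic heat shock proteins (-0.16 and 0.91) and mitosis (-0.10 and -0.94), and all genes tested lie at -0.00 and -0.05.

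With a single slope over dose, 0 genes departed from a straight line at 4 mM over both lines by limma (405 at an unadjusted p under 0.05). Genes that moved at 4 mM alone and genes that followed the dose were thus told apart here by their values and not by that test. The count of departures was 39 when UM-UC3 at 4 mM was left out and 9 when 5637 at 4 mM was.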

How the data were processed

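RNA was sequenced from 8 libraries, 1 for each of 4 doses in each of 2 lines, as paired reads of 150 bases. The methods of the study name isolation of poly(A) mRNA before library preparation. According to the methods of the study and the submitters' processing notes, trimming used Cutadapt and Trimmomatic 0.35 and alignment to GRCh38 HISAT2 2.1.0, and StringTie, edgeR, CASAVA 1.8 and FastQC are named with no role. For the gene annotation, a release was not given in the sources used here. For RNA extraction the labels name an RNeasy kit and the methods a HiPure kit. The values deposited by the authors are not whole numbers and carry no unit, and were taken to be FPKM per gene, normalised by the authors. Read depth is therefore unknown, and no interval for counting error was given. A second sheet with 22465 genes holds identical values and was not used, nor was the authors' sheet of correlations between libraries.

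Genes whose FPKM averaged at least 1 over the 6 libraries at 1, 2 and 4 mM were kept, and limma 3.58.1 (R 4.3.3) was run on log2(FPKM + 1) (trended and robust eBayes, Benjamini-Hochberg adjustment over all tested genes, two-sided). A count test had been planned for the case that counts were deposited and was replaced by limma. The fit over both lines held a term for the line (3 residual degrees of freedom), the fit with a step for each line gave the steps per line and their difference (2), the departure from a straight line over dose used all 8 libraries (4), and the added fit of 4 mM against 0, 1 and 2 mM had 5. A called gene has an adjusted p under 0.05.

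A called gene was put in a class if its step was at least 1 in the same direction in both lines. It stood apart only at 4 mM if 1 and 2 mM each lay within 0.5 of DMSO, and it reversed or continued if their mean lay at least 0.5 against or along the step. The same classes were also filled by size without the call. Named genes were the 12 largest rises and falls called over both lines (mean FPKM 4 or more), the 6 largest of each class and of each direction of the difference between the lines, up to 4 called members of a list with the smallest p, every called member where 5 or fewer passed, and ENO1 and PPARG. As this rule left few genes, others were added once their values had been seen. Results for some genes are not reported here. The members and lists were chosen with earlier results of these data known. Promoter sequences came from RefSeq (GRCh38.p14), matched by symbol, and tables and plots were made with Python 3.11.15, pandas 2.3.3 and matplotlib 3.10.9. The fits were tested on simulated data. Alternatives were rescaling, another pseudocount, other filters, plain eBayes, no term for the line, single low doses, each library left out, other class limits and the DMSO libraries added to the low doses.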

Additional observations from a re-analysis of the deposited data

Results flagged for a closer look

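The step from low doses to 4 mM differed between the lines for 52 genes by the test of the difference itself (limma, adjusted p under 0.05), and 11 of the largest differences among those whose FPKM averaged 4 or more are given here as the step in UM-UC3 cells minus that in 5637 cells on the log2(FPKM + 1) scale. It was 4.53 for HSPA1A and 4.46 for HSPA1B, the near-identical inducible HSP70 genes, 4.13 for SNORD14E in an intron of HSPA8, 3.935 for BHLHE40 and 3.63 for ANXA8L1. It was -3.41 for AC005192.1, -3.28 for NBR2, -3.23 for MIR22HG, -2.87 for PURPL, -2.78 for BFSP1 and -2.76 for KCNMA1. BFSP1, a filament protein of the eye lens, stood at 1.38, 0.855, 1.22 and 11.6 FPKM in 5637 cells and at 9.12, 10.3, 7.70 and 7.98 in UM-UC3 cells. None of the 11 differences passed with a pseudocount of 0.1, and none passed when a library at 1 or 2 mM was left out. AC005192.1, listed at 0 in 5637 cells at 0, 1 and 2 mM, was tested only because of its values at 4 mM, and PURPL was listed at 0 in 5637 cells below 4 mM. Groups of 1 library per dose and line are too small for a test of single outlying libraries.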

How the results depend on the processing

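The count for the step over both lines, 1 gene, was 0 with no filter and 0 with no term for the cell line, 2 with plain eBayes, 245 for 4 mM against 2 mM alone, 24 for 4 mM against 1 mM alone and 1371 with the DMSO libraries added. Leaving out any single library at 1 or 2 mM gave 0 calls over both lines. Without the 4 mM library of 5637 cells, the fit over both lines holds only the step of UM-UC3 cells. Its 45 calls are those of UM-UC3 cells alone. Without the 4 mM library of UM-UC3 cells, that fit holds only the step of 5637 cells. Its 2348 calls are those of 5637 cells alone. Neither count describes calls shared by the lines. With 1 library left out, the ranges were 0 to 2348 for 5637 cells, 0 to 45 for UM-UC3 cells, 0 for the difference and 0 to 39 for the departure from a straight line. Leaving out a library at 1 or 2 mM also leaves fewer degrees of freedom. With the DMSO libraries added, UM-UC3 cells had 656 calls and the difference 700. With a pseudocount of 0.1 the difference had 0 calls, while 1993 of 2327 calls in 5637 cells and 30 of 48 in UM-UC3 cells were kept. A limit of 0.8 against DMSO put 1 called gene in the class apart only at 4 mM. By size, that class held 5 genes at a limit of 0.3 and 72 at 0.8, the continued class 62 and 7, and the reversed class 0 at 0.8. With 1 library left out, the step of AP002990.1 in 5637 cells ran from -0.15 to 2.93 and that of AC023055.1 in UM-UC3 cells from -3.80 to 0.50, each changing sign without the 1 mM library of its line. The causes were not tested. No paired analysis was possible because each dose of each line has 1 library and the labels pair none, so the block used here is the line.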
